A study of Mus musculus with 6 samples.

Results

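The immediate early genes examined here were Fos, Fosb, Jun, Junb, Egr1, Atf3, Ier2, Ier3, Dusp1 and Klf4, taken as every probe set of the array whose annotation names 1 of these 10 symbols. They were represented by 12 probe sets, with a pair each for Jun and Klf4, out of 34945 probe sets with a single gene name (18193 genes). Expression was measured on 1-colour Affymetrix Mouse Genome arrays in tissue dissected around the developing mouse inner ear at embryonic day 11.5, that is, the otic vesicle and the mesenchyme around it. In Mest-KO pools Tbx1 was conditionally knocked out with T-Cre, a Cre recombinase active in mesoderm, so that the otic epithelium was not its target, and in control pools Tbx1 was conditionally heterozygous with the same Cre. There were 3 arrays of each genotype, and each array held both ears of 3 embryos pooled, with RNA taken directly after dissection according to the labels. The labels used here do not state the sex of the pooled embryos or how the second Tbx1 allele was made.

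Immediate early genes are transcribed within minutes of a stimulus, without new protein synthesis, when kinase cascades act on factors such as SRF, ELK and CREB that already sit at their promoters. Most of their products are transcription factors that then switch on later genes, and their transcripts are short-lived. Because growth factors, stretch, wounding and tissue dissection can all induce them, they are read both as targets of signalling in the embryo and as a sign of how a sample was handled.

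No member passed the test for a genotype difference, and the clearest feature of the set was 1 array. Fos stood several-fold higher in control 3 than in the other 5 pools. On the brighter of its probe sets, Jun was modestly higher in all 3 Mest-KO pools than in any control pool, as were 9.32% of all genes. Ier2 was lower in Mest-KO on average. Neither Jun nor Ier2 passed after adjustment over all genes. Apart from the brighter Jun probe set, every probe set of the members overlapped between the genotypes, those of Fos and Ier2 included.

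The promoters of 3 members are printed as the 150 bases upstream of the annotated transcription start, from the RefSeq annotation of GRCm38.p6 and 5′ to 3′ on the gene's strand. Fos is shown because it varied most between arrays, and Jun because the groups separated on its brighter probe set. Dusp1 is shown because it alone among the members in the promoter table held a full cAMP response element. The stretches are chr12:85473740-85473889 on the plus strand for Fos, chr4:95052223-95052372 on the minus strand for Jun and chr17:26508473-26508622 on the minus strand for Dusp1. Capitals mark TGACG and TATAAA in Fos, TGACATCA in Jun and TGACGTCA in Dusp1. TGACGTCA is the palindromic cAMP response element bound by CREB and ATF proteins, TGACG is its core, and TGACATCA is the element of the Jun promoter bound by Jun with ATF partners.
Fos: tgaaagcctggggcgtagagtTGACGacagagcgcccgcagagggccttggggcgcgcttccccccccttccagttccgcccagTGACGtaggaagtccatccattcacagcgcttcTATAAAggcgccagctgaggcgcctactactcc
Jun: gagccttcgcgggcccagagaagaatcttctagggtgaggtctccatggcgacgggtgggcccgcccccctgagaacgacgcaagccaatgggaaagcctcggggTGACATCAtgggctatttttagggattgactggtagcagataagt
Dusp1: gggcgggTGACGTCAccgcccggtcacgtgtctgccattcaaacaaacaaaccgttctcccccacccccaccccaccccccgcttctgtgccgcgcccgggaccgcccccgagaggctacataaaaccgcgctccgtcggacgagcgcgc

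Of the 10 members, 8 had an entry in the promoter table, all but Egr1 and Ier2. Motifs were searched on both strands of the 250 bases before the start. TGACG was found in Fos (bases 129 to 125 and 66 to 62 before the start), Fosb, Junb, Dusp1, Klf4 and Atf3, and in 17.8% of the 32851 promoters of the table. The full TGACGTCA, which contains TGACG on both strands, was found in Dusp1 (143 to 136) and in 1.55% of promoters. TGACATCA lay in Jun (45 to 38) and in 2.93% of promoters, and TATAAA lay in Fos (33 to 28) and in 12.4%. The EGR motif GCGNGGGCG was found in Fosb and Klf4 and in 4.7% of promoters. The AP-1 motif TGACTCA (4.46% of promoters) and the CArG box bound by SRF (1.47%) were not found in these windows of the members. These matches are descriptions of sequence, and no binding was measured.

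Values are linear intensities as deposited, and probe sets of different genes cannot be set against each other. Log2 differences are Mest-KO minus control on the log2(intensity + 16) scale, which understates changes of dim genes, and are given with the standard error of the limma fit. Adjusted p-values are limma's with Benjamini-Hochberg adjustment over the 14170 genes kept by a filter on low values, of which 9 were members. Fosb lay below the filter. An exact permutation test of 3 arrays against 3 cannot give a p below 0.1. Because the arrays hold bulk tissue, fewer cells of a type and less RNA per cell cannot be told apart.

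Fos encodes the founding member of the FOS family, whose proteins pair with JUN proteins to form the AP-1 transcription factor. It read 85.5, 77.0 and 542 on control arrays 1 to 3 and 75.4, 115 and 97.9 on Mest-KO arrays 1 to 3. Control 3 stood alone, at 6.67 times the mean of the other 2 control pools, and the remaining 5 arrays averaged 90.1 ± 16.5 (SD, n = 5 arrays). The groups overlapped, at 235 ± 266 among controls and 96.1 ± 19.8 among Mest-KO pools (SD, n = 3 arrays each). The fitted log2 difference was -0.65 ± 0.54 (95% interval -1.83 to 0.53; limma adjusted p = 0.776; exact permutation p = 0.8). Without control 3 it was 0.19 ± 0.20 (95% interval -0.25 to 0.63) at a limma adjusted p of 0.887. The sign of the Fos difference and most of its error thus rested on 1 array.

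Fosb, another FOS family gene that is usually silent until a cell is stimulated, read 0.639, 6.27 and 28.7 on control arrays 1 to 3 and 5.87, 1.29 and 7.62 on Mest-KO arrays 1 to 3. Background was judged by 27 bacterial control probe sets with no transcript added, whose highest reading was 11.2. Control 3 was the only array on which Fosb exceeded that reading, by 2.56 times. On the other 5 arrays Fosb was not above background, so no fold between the genotypes is given.

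Jun, the main JUN partner in AP-1, was measured by 2 probe sets. The brighter read 2537, 2476 and 2601 on control arrays 1 to 3 and 2828, 2984 and 2981 on Mest-KO arrays 1 to 3. Every Mest-KO pool was above every control pool. The means were 2538 ± 62.5 and 2931 ± 89.3 (SD, n = 3 arrays each), a log2 difference of 0.21 ± 0.07 with a 95% interval from 0.06 to 0.36. The unadjusted limma p was 0.0116 and the adjusted p was 0.355, so the difference did not pass, and the exact permutation p was 0.1, the smallest possible. Such a separation upwards was common, since 9.32% of all 14170 genes had every Mest-KO array above every control array. The dimmer Jun probe set differed by 0.27 ± 0.14 with overlapping groups (limma adjusted p = 0.616). It read 545, 553 and 774 on control arrays 1 to 3 and 833, 708 and 698 on Mest-KO arrays 1 to 3, so that control 3 was the highest control on both probe sets.

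Junb, a JUN family gene that in many settings restrains JUN, was dim, at 43.3, 24.98 and 19.9 on control arrays 1 to 3 and 40.1, 23.2 and 33.8 on Mest-KO arrays 1 to 3. The Mest-KO values lay within the control range. The log2 difference was 0.11 ± 0.22 (limma adjusted p = 0.925), and it was -0.04 ± 0.24 without control 3. Junb was thus lowest in the very array where Fos was highest. Atf3, a stress-induced ATF/CREB family gene, read 75.3, 75.7 and 86.4 on control arrays 1 to 3 and 79.2, 75.4 and 69.6 on Mest-KO arrays 1 to 3. Control 3 was the highest and Mest-KO 3 the lowest. Its means were 79.1 ± 6.25 among controls and 74.7 ± 4.83 among Mest-KO pools (SD, n = 3 arrays each), a log2 difference of -0.07 ± 0.15 (limma adjusted p = 0.929).

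**Figure D1:**
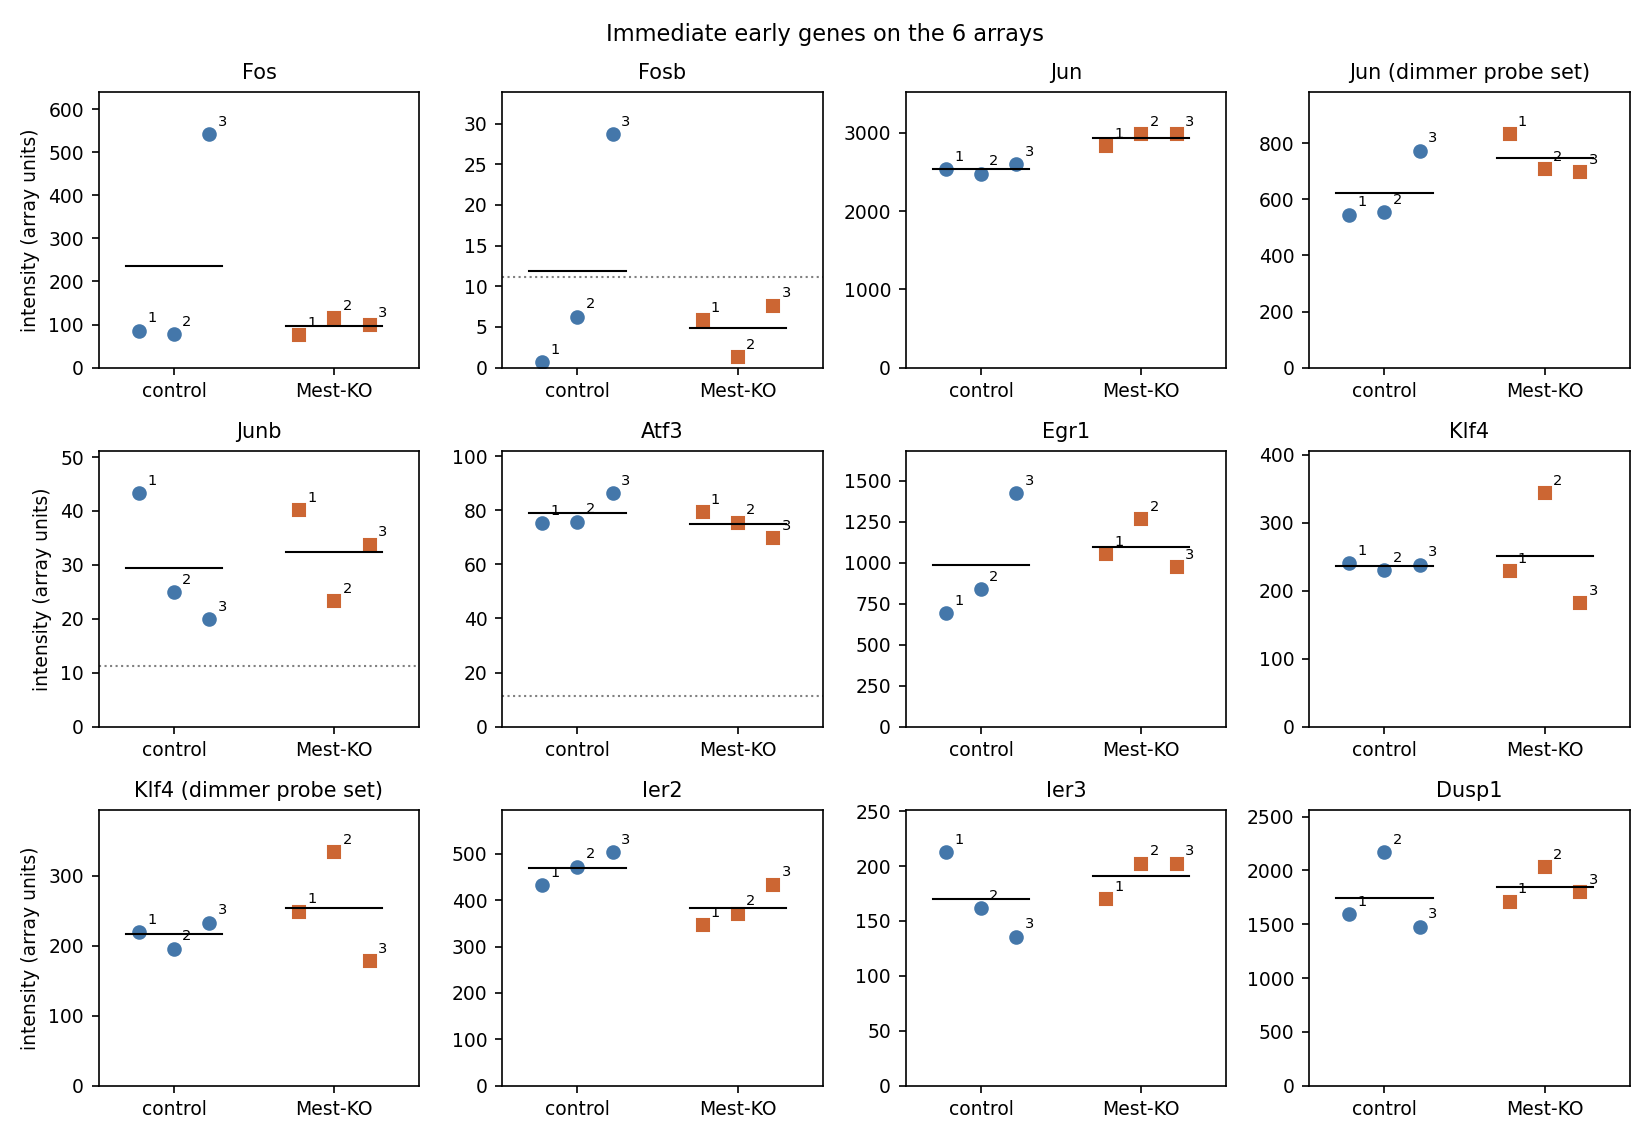
Intensity of each immediate early probe set (vertical axis, linear array units starting at 0) in control pools (blue circles) and Mest-KO pools (orange squares), numbered by replicate, with the group mean as a black line and, in the panels of the dimmest genes, the highest background reading of 11.2 as a dotted line. Fos reads 542 in control 3 and at most 115 elsewhere, and the brighter Jun probe set has all Mest-KO pools above all control pools.

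Egr1 encodes a zinc finger transcription factor induced through SRF and ELK sites. It read 693, 837 and 1424 on control arrays 1 to 3 and 1050.1, 1265 and 972 on Mest-KO arrays 1 to 3. Control 3 was again the highest array, and control 1 and 2 were the lowest. The fitted log2 difference was 0.21 ± 0.22 (95% interval -0.26 to 0.69; limma adjusted p = 0.832). Without control 3 every Mest-KO pool was above the other 2 control pools and the difference was 0.51 ± 0.14, with an interval from 0.20 to 0.82. Its unadjusted limma p was then 0.00472 but its adjusted p was 0.451, and control 3 was singled out with the values known.

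Klf4 encodes a Krüppel-like zinc finger factor made in epithelia and endothelium as well as after serum stimulation. Its brighter probe set read 240, 230.3 and 238 on control arrays 1 to 3 and 229, 343 and 182 on Mest-KO arrays 1 to 3. The Mest-KO pools spread to both sides of a tight control group, with SDs of 83.2 and 5.09 (n = 3 arrays each). The dimmer probe set read 219.8, 196 and 233 on control arrays 1 to 3 and 248.7, 334 and 178 on Mest-KO arrays 1 to 3, with Mest-KO 2 again the highest array and Mest-KO 3 again the lowest. The log2 differences were 0.04 ± 0.19 and 0.18 ± 0.20 (limma adjusted p = 0.973 and 0.843). The sign for the brighter probe set was not stable, being -0.0043 with quantile normalization and -0.03 with arrays centred on their medians.

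Ier2 and Ier3 encode small immediate early response proteins, IER2 being nuclear and IER3 a regulator of cell survival. Ier2 read 433, 472 and 504 on control arrays 1 to 3 and 346, 371 and 434 on Mest-KO arrays 1 to 3. The groups overlapped only where Mest-KO 3 narrowly exceeded control 1. Means were 470 ± 35.5 and 384 ± 45.2 (SD, n = 3 arrays each), with a log2 difference of -0.28 ± 0.12 and a 95% interval from -0.56 to -0.01. The unadjusted limma p was 0.0415, the adjusted p 0.531 and the exact permutation p 0.2. Ier3 read 213, 162 and 136 on control arrays 1 to 3 and 169.9, 202 and 202 on Mest-KO arrays 1 to 3, and was lowest in control 3. Its log2 difference was 0.17 ± 0.17 (limma adjusted p = 0.820) and 0.04 ± 0.17 without control 3.

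Dusp1 encodes a phosphatase that switches off MAP kinases and so limits the response that induces it. It read 1591, 2171 and 1479 on control arrays 1 to 3 and 1711, 2028 and 1800.2 on Mest-KO arrays 1 to 3. All Mest-KO values lay between control 1 and control 2, and control 3 was the lowest array. The fitted log2 difference was 0.10 ± 0.13 (95% interval -0.20 to 0.39; limma adjusted p = 0.882).

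Among the 9 members tested, 6 differed upwards and 3 downwards in Mest-KO, with a median log2 difference of 0.10 against 0.01 over all 14170 genes. At a limma adjusted p under 0.05, 0 members passed, where 21 of all genes did (0.148%; 12 higher and 9 lower in Mest-KO, or 22 higher and 56 lower with arrays centred on their medians). At an unadjusted p under 0.05, Jun and Ier2 passed, that is 2 of 9, where 8.97% of all genes did. In 18 alternative settings of processing, sample or model, 0 members passed after adjustment. The lowest adjusted p over these settings was 0.242 for Jun and 0.385 for Ier2. Jun ranged from 0.14 to 0.24 and Ier2 from -0.37 to -0.22 on the log2 scale.

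**Figure D2:**
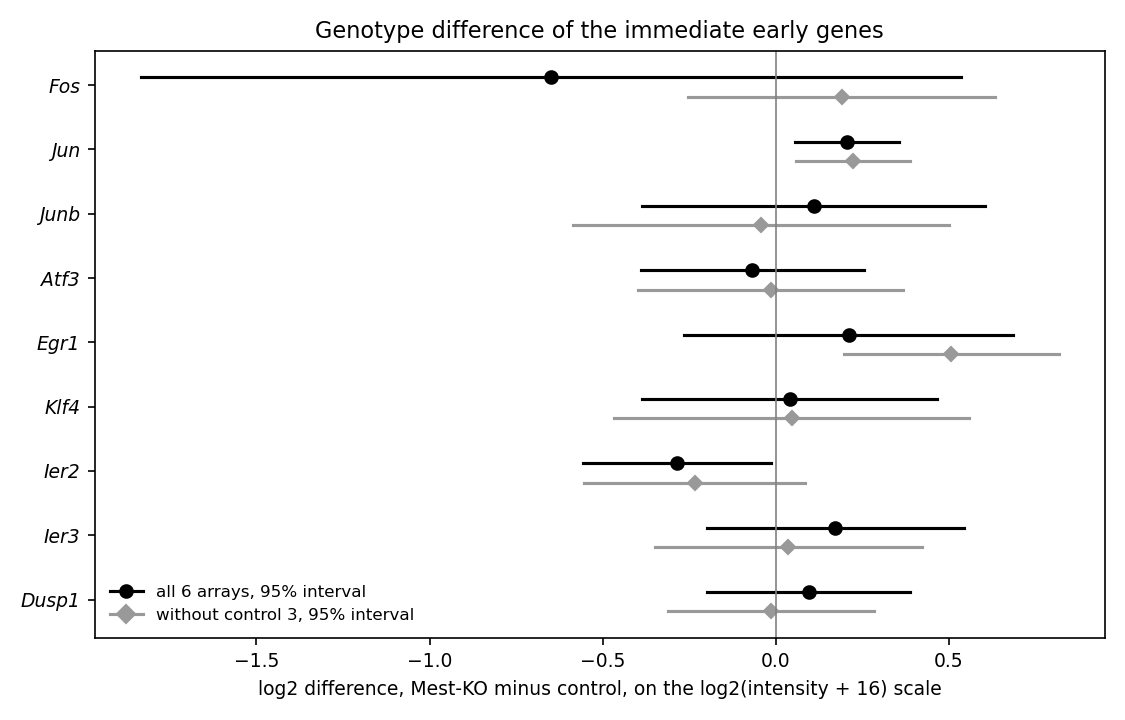
Log2 difference between Mest-KO and control (horizontal axis, log2(intensity + 16) scale) for the 9 members tested, with 95% intervals of the limma fit, from all 6 arrays (black circles) and without control 3 (grey diamonds). The interval for Fos runs from -1.83 to 0.53 with control 3 and from -0.25 to 0.63 without it, and that for Egr1 moves from between -0.26 and 0.69 to between 0.20 and 0.82.

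Control 3 was then set against the other arrays, a comparison chosen after its Fos value was seen. On the log2(intensity + 16) scale Fos in control 3 was 2.46 above the median of the other 5 arrays. Of the 14170 genes, 2 (0.0141%) were at least 2-fold above every other array in control 3, namely Fos and the transcript 4933438K21Rik (134 in control 3 and 57.1 on the next highest array). By distance from the median of the other 5 arrays, Fos ranked 6 and Egr1, 0.54 above that median, ranked 244 among the 14170 genes. Control 3 was the highest array for 4 of 9 members (Fos, Egr1, Atf3 and Ier2), where it was highest for 16.1% of all genes. The set was not high as a whole there, since Junb, Ier3 and Dusp1 were lowest in control 3, at -0.47, -0.52 and -0.28 from the median of the other 5 arrays. Of these, Junb was dim, and its reading in control 3 was 1.78 times the highest background reading. Without Fos, the mean of the members in control 3 was -0.02 from its mean over the 6 arrays on the log2 scale, and with Fos it was 0.20. Of the other 8 members tested, none departed from the median of the other 5 arrays by more than Egr1 did in control 1, at -0.59. Fosb, which was not tested, was 1.03 above that median in control 3, the only array on which it was above background.

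**Figure D3:**
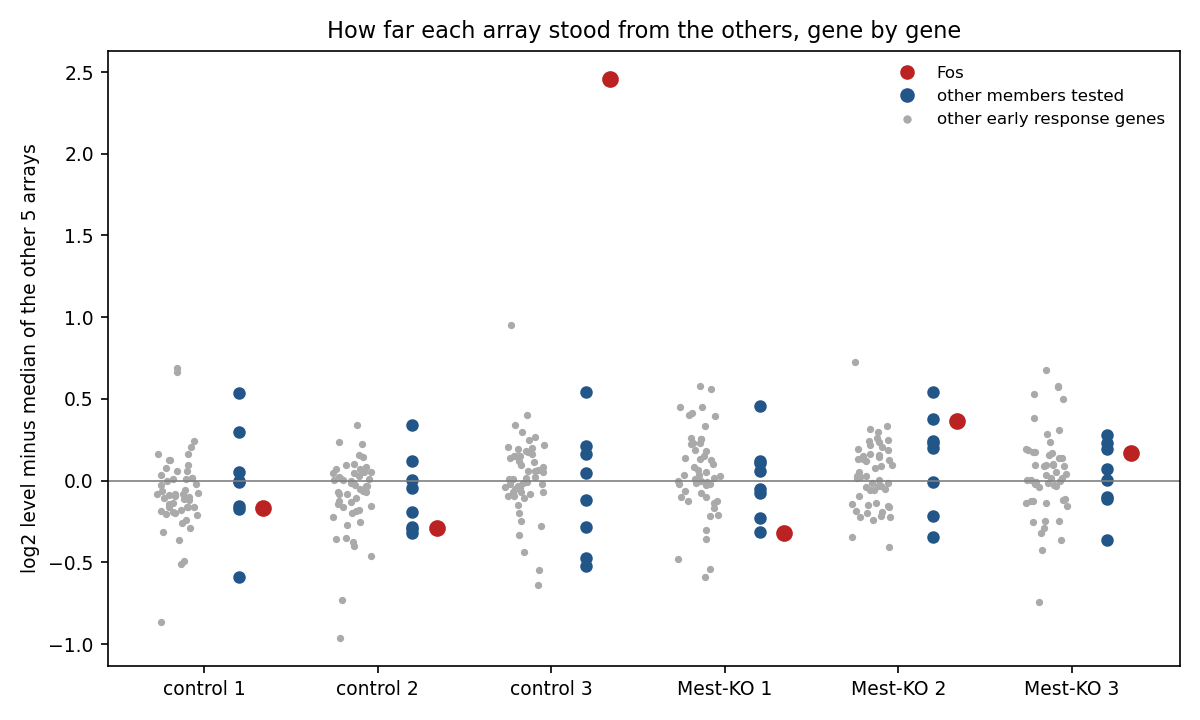
Log2 level on each array minus the median of the other 5 arrays (vertical axis) for Fos (red), the 8 other members tested (blue) and 52 other early response genes (grey), by array (horizontal axis). Fos in control 3 lies at 2.46, while the other early response genes in that array lie between -0.64 and 0.95.

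Array quality and tissue makeup were read beside this value. The arrays had the same trimmed mean intensity (500.002), and correlations of log2 intensities between arrays lay between 0.987 and 0.993. The ratio of 3′ to 5′ signal, which grows as RNA degrades, was 1.82 for Actb in control 3 and between 1.74 and 1.99 elsewhere, and 1.47 for Gapdh in control 3 and between 1.35 and 1.57 elsewhere. The added hybridization controls averaged 6787 in control 3 and between 5673 and 5778 elsewhere, and the middle 18S rRNA probe set was lowest there, at 1302 against 1568 to 2499. Their part in the Fos value was not tested. Tbx1 read 525, 567 and 447 among controls and 520.5, 578 and 409.9 among Mest-KO pools, a log2 difference of -0.03 ± 0.14 (limma adjusted p = 0.967). This checks the labels only if its probe set lies in the deleted part, a point no label used here settles. The pools also held otic epithelium, which was not the target of the Cre, so any Tbx1 made there would be read in both genotypes. All 15 otic epithelium and 14 periotic mesenchyme genes tested were above background on every array.

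Markers of other cells were then set beside Fos array by array. Means of the 12 hindbrain neural tube genes, centred on the 6 arrays, were 0.77, -0.30 and 0.92 on control arrays 1 to 3 and -0.53, -0.12 and -0.73 on Mest-KO arrays 1 to 3 on the log2 scale. They were high in control 1 as well as control 3, while centred Fos read -0.45 in control 1 and 2.01 in control 3. Their summed intensity ran from 6372 to 8647 in control and from 5061 to 6791 in Mest-KO, and 9 of the 12 were above background on every array. The 12 macrophage genes were lowest in control 3, at -0.21, with summed intensities from 5544 to 6047 in control and from 5580 to 7278 in Mest-KO. The 9 erythroid genes stood at 0.02 in control 3 (summed 41358 to 43856 in control and 35788 to 42895 in Mest-KO). The mean of the Y-linked genes stood at -0.49, 0.43 and -0.43 on control arrays 1 to 3 and at 0.26, 0.23 and 0.01 on Mest-KO arrays 1 to 3. The part of these cell types and of sex makeup in the Fos value of control 3 was not tested. Their part in the genotype differences was not tested beyond a fit that took the mean of the Y-linked genes as covariate. In that fit Fos differed by -0.22 ± 0.54.

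**Figure D4:**
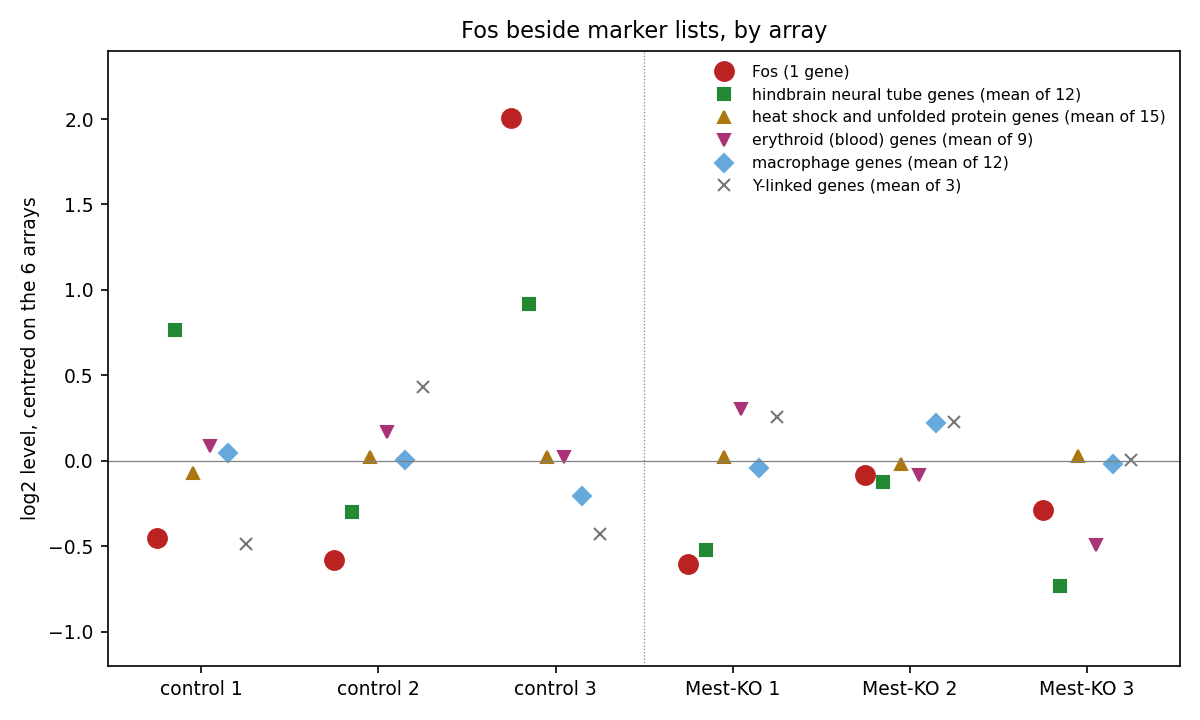
Log2 level of Fos and mean log2 level of marker lists, each centred on the 6 arrays (vertical axis), for each array (horizontal axis; points are offset sideways for legibility). Fos stands at 2.01 in control 3 alone. The mean of the hindbrain neural tube genes is high in control 1 (0.77) and control 3 (0.92), and that of the heat shock and unfolded protein genes stays between -0.07 and 0.03.

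The wider early response was read from 56 further genes, of which 52 were tested. Here 35 differed upwards and 17 downwards in Mest-KO, 0 passed at an adjusted p under 0.05, and 6 had an unadjusted limma p under 0.05, where 8.97% of all genes did. In 5 of the 52 every Mest-KO array was above every control array, against 9.32% of all genes. The median log2 difference was 0.06, and it was 0.10 without control 3 and 0.03 without control 1, against 0.01 over all genes. With arrays centred on their medians it was -0.0027, where the median of all genes was -0.05. The 3 with the smallest p were Gadd45g, Ccl2 and Egr2. Gadd45g, a growth arrest and DNA damage gene, read 517, 416 and 366 among controls and 624, 580.1 and 739 among Mest-KO pools without overlap (0.57 ± 0.14, limma adjusted p = 0.207). Ccl2, encoding a chemokine that draws monocytes, was dim, at 52.1, 31.5 and 33.4 among controls and 15.6, 27.0 and 12.4 among Mest-KO pools (-0.68 ± 0.22, adjusted p = 0.323). Egr2, which also marks hindbrain segments and early Schwann cells, read 335, 403 and 413 among controls and 623, 691 and 411 among Mest-KO pools (0.54 ± 0.18, adjusted p = 0.357). Egr2 did not follow Egr1 in control 3, where it was 0.01 from the median of the other 5 arrays.

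Other early genes, picked with their values known, also failed to pass. Jund, a JUN gene made without stimulation in most cells, differed by -0.07 ± 0.07, Fosl2, a FOS family gene, by 0.14 ± 0.11 without overlap, and Nr4a1, an orphan nuclear receptor gene induced along with Fos, by 0.22 ± 0.17 (limma adjusted p = 0.818, 0.749 and 0.756). In control 3 these were 0.18, -0.04 and -0.05 from the median of the other 5 arrays. Relatives of Egr1, Ier2, Klf4 and Dusp1 included Egr3 (0.37 ± 0.22), Ier5 (0.11 ± 0.11), Klf2 (0.11 ± 0.14) and Dusp4 (-0.13 ± 0.14), at limma adjusted p of 0.650, 0.826, 0.866 and 0.835. Zfp36, Btg2 and Ccn1, which are commonly induced along with Fos and Egr1, stood 0.08, 0.22 and 0.21 above that median in control 3. These 3 do not stand for the list. Over the 52 genes such distances in control 3 ran from -0.64 (Gadd45g) to 0.95 (Plk3), with a median of 0.02, and Ier5 stood at -0.33. Control 3 was the highest array for 7 of the 52, where it was highest for 16.1% of all genes. Of the 52, Plk3 alone was at least 1.5-fold above every other array there, as were 0.0988% of all genes. Plk3, a dim kinase gene, read 57.9 in control 3 and 4.7 to 29.2 elsewhere.

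None of the genes that act upstream passed. Over all 14170 genes, 0.148% passed after adjustment and 8.97% had an unadjusted limma p under 0.05. Of 26 kinases and transcription factors, 19 were tested, with 12 upwards, 7 downwards, 0 past the adjusted threshold, 1 at an unadjusted limma p under 0.05 and a median of 0.05 (-0.01 with arrays centred on their medians and 0.0088 with the mean of all probe sets). The smallest p belonged to Mrtfb, an SRF coactivator (-0.18 ± 0.08), Mapk9, a JUN kinase (0.21 ± 0.10), and Elk1, the ETS factor that joins SRF at serum response elements (0.22 ± 0.12), with limma adjusted p of 0.525, 0.569 and 0.614. Of 15 heat shock and unfolded protein genes tested, 9 differed upwards and 6 downwards, with 0 at either threshold (limma) and a median of 0.01. That median was 0.05 with quantile normalization, -0.06 with arrays centred on their medians and -0.04 without control 1. Those with the smallest p were Xbp1 (0.15 ± 0.07), Hsp90aa1 (-0.14 ± 0.08) and Ddit3 (0.17 ± 0.15), at limma adjusted p of 0.576, 0.634 and 0.784. Hsp90aa1, the inducible cytosolic HSP90, was highest in control 3, at 8698 against 6826 to 7587 elsewhere. The summed intensity of the 15 genes was also highest there, at 70255 against 62896 to 67307 elsewhere. Their mean log2 level in control 3 was 0.02 above its mean over the 6 arrays.

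The marker lists were read for the makeup of the pools, beside 8.97% of all genes at an unadjusted limma p under 0.05. Of 12 hindbrain genes, 11 differed downwards in Mest-KO and 1, Egr2, upwards. An unadjusted limma p under 0.05 was found for 9 of them, Egr2 included, and 1 gene passed after adjustment. That gene was Hoxb1, a homeobox gene of the hindbrain, which read 40.2, 29.1 and 66.002 on control arrays 1 to 3 and 4.96, 9.08 and 3.12 on Mest-KO arrays 1 to 3 (limma adjusted p = 0.0478). It fell to readings that were not above background in Mest-KO, so no fold is given, and the call was lost in 12 of 17 alternatives. These included leaving out any array but control 2 (adjusted p from 0.0831 to 0.268). The hindbrain median was -1.06 on the log2 scale. It was -0.72 without control 3, -1.60 without control 2, -0.53 with a pseudocount of 64 and -0.50 with the Y-linked covariate.

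In the other 7 marker lists 0 genes passed after adjustment (limma), and the gene of smallest p in each follows. Of 14 periotic mesenchyme genes (median -0.12), 5 had an unadjusted p under 0.05, led by Foxf1 (-0.96 ± 0.19, limma adjusted p = 0.106). Of 15 otic epithelium genes (median 0.0032), 3 did, led by Sox10 (0.41 ± 0.08, limma adjusted p = 0.106). These 3 did not share a direction. Otx1 (-0.79 ± 0.20) and Gata3 (-0.62 ± 0.21) were lower in Mest-KO, at limma adjusted p of 0.209 and 0.361. Of 10 blood endothelium genes (median 0.06), 2 had an unadjusted p under 0.05, led by Tie1 (0.54 ± 0.14, limma adjusted p = 0.207). Each remaining list held 1 such gene, namely Cdh1 of 12 surface ectoderm genes (-0.37 ± 0.11, median -0.16), Cd68 of 12 macrophage genes (0.36 ± 0.15, median 0.12), Hbb-y of 9 erythroid genes (-0.17 ± 0.07, median -0.19) and Eif2s3y of 3 Y-linked genes (0.57 ± 0.19, median 0.21), at limma adjusted p of 0.278, 0.491, 0.483 and 0.382. Several medians rested on single arrays. The erythroid median was -0.47 without Mest-KO 1 and 0.02 without Mest-KO 3, and that of macrophages was 0.04 without control 3 and 0.06 without Mest-KO 2. The blood endothelium median lay between 0.11 and 0.135 without control 1, control 3, Mest-KO 1 or Mest-KO 3, and was -0.01 with arrays centred on their medians. The Y-linked median was 0.53 without control 2 and 0.11 without control 1, periotic mesenchyme stood at -0.199 without control 2, surface ectoderm at -0.29 without Mest-KO 3 and -0.10 without Mest-KO 1, and otic epithelium took either sign when 1 array was left out.

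The mean log2 level of the 9 members, each of which is part of it, followed over the 6 arrays Fos (Pearson r = 0.92) and Egr1 (0.85) and ran against Junb (-0.72). The 8 named genes outside the set with the most similar profile were Tgm4, Ccsap, Zfp384, Synpo2, Otp, Myef2, Nupl1 and Apmap, with r from 0.961 to 0.972 over 6 arrays. Of these only Otp, a homeobox gene of neurons, came close to Fos in size, at 136 in control 3 and 77.2 in Mest-KO 2 and between 6.55 and 17.1 elsewhere, of which the lowest was not above background and the others were close to it. Zfp384, a zinc finger gene, read 2063 in control 3 and 1397 to 1656 elsewhere. With 6 arrays and 14170 genes, such correlations describe these arrays only.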

How the data were processed

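The authors deposited linear intensities per probe set from 6 arrays. The submitters' processing notes name Affymetrix Expression Console 1.1, and how it summarized and background-corrected probes is not given in the sources used. All arrays shared 1 trimmed mean, so a shift shared by most genes would not show. Labelling used 300 ng of total RNA per array, per the labels' protocols.

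Probe sets were named from the platform annotation, which gave 34945 a single symbol, 932 several and 9160 none; 64 control probe sets were left out. The probe set of highest mean log2(intensity + 16) stood for its gene, and genes whose mean lay at or under the 30th percentile (an intensity of about 13.3) were left out. Mest-KO and control were compared across all genes with limma 3.58.1 in R 4.3.3 (eBayes with trend, two-sided, Benjamini-Hochberg threshold 0.05). Dimmer probe sets were read from a fit over all probe sets above the filter, and single values also by exact two-sided permutation. The steps were run on simulated data with independent noise for each gene. That simulation held no effect shared by the genes of an array or by tissue makeup, so it does not speak for such effects.

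All 10 members were named, and from each gene list those past the threshold or otherwise up to 3 with the smallest p (1 in lists of cell type and Y-linked genes, but 3 for otic epithelium). The members and lists were chosen with earlier results of these data known. According to the labels, arrays of 1 genotype are biological replicates from separate pools. With 3 arrays a group, their number limits the precision.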

Additional observations from a re-analysis of the deposited data

How the results depend on the processing

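No member passed after adjustment in any of the 18 alternatives (limma), and 5 of these (both filters, single probe sets, the error model and the block) leave each member's difference as it is. Of 110 differences that moved, 100 kept their sign and 10 did not. With 1 array left out at a time, Fos ranged from -1.10 to 0.19, Junb ranged from -0.0427 to 0.319, Egr1 from -0.0042 to 0.51, Dusp1 from -0.0134 to 0.261 and Klf4 from -0.20 to 0.24. Klf4 was also -0.0043 with quantile normalization and -0.0251 with arrays centred on their medians, Junb -0.0669 with array weights and Dusp1 -0.0743 with the mean of the Y-linked genes as covariate. The count of 21 genes past the threshold over all genes was 78 with arrays centred on their medians, 2 with no filter on low values, 6 with the mean of all probe sets and 1 without the variance trend. It ranged from 2 (without control 1) to 82 (without control 2) when 1 array was left out, and was 6, 3, 9 and 21 without control 3, Mest-KO 1, Mest-KO 2 and Mest-KO 3. The cause was not tested. Fitted with the replicate number as a block it was 9, and 0 members passed. The numbers were not taken to pair the samples because nothing in the labels says that equal numbers share a litter or day. Deviations of same-numbered arrays correlated at -0.03, -0.11 and -0.15, and no array correlated best with its own number. As the deviations were centred within groups of 3 arrays, these correlations do not settle whether same-numbered pools shared a litter or day.

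Chosen after seeing the data, Fos in control 3 was recomputed under 7 settings, of which 4 could change its value, and was at least 2-fold above every other array in these 4. It was 2.02 above the median of the other arrays with a pseudocount of 64 and 2.46 to 2.65 with the others. The number of such genes was 4 with a pseudocount of 1 or no filter and 1 with a pseudocount of 64 or the filter at the 50th percentile, where dim genes count for more or less. Junb was not tested under the latter. Fosb and Junb lie close to background, which limits what their values show.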
